A study of Mus musculus with 40 samples.

Results

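The expression of 10 genes of the bone morphogenetic protein (BMP) pathway was followed through rib repair: the ligands Bmp2, Bmp4, Bmp5, Bmp6 and Bmp7, the secreted antagonists Nog and Grem1, the receptors Bmpr1a and Bmpr2, and the response gene Id1. They were taken by gene symbol from the deposited expression table, and all 10 were among its 21204 genes. Composite tissue of bone, bone marrow and intercostal muscle from the rib cage was profiled by bulk RNA sequencing in wild type mice, which the study's methods describe as female and of the C75BL/6 strain, as printed there. Immature mice were 7 weeks old and mature mice older than 10 months, and neither age received any agent beyond the surgery. At each age, tissue was collected before a rib segment was resected (baseline), on the day of the resection (0dpr, days after resection) and on days 2, 5 and 14 (2dpr, 5dpr and 14dpr). Each of the 10 groups had 4 libraries, except mature mice at 5dpr with 3, because replicate 2 of that group was not analysed here. No label says whether a library came from 1 animal or from pooled tissue.

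BMPs are secreted dimers of the TGF-beta superfamily. They bind complexes of type I receptors, such as BMPR1A, and the type II receptor BMPR2, and the activated complex phosphorylates SMAD1, SMAD5 and SMAD9, which enter the nucleus with SMAD4 and switch on genes such as Id1, an inhibitor of basic helix-loop-helix factors. Noggin and gremlin 1 bind the ligands outside the cell and keep them from their receptors. In the skeleton the pathway is known for its part in cartilage and bone formation and in fracture repair, and BMP2 is known to be needed for the start of fracture healing.

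Total counts ran from 6057756 to 21537070 per library with a median of 9087417. The level of a gene is given as CPM, its read count relative to the library total after TMM scaling, which corrects totals for differences in composition. A change between groups is a log2 fold change from edgeR's quasi-likelihood test, fitted to all 39 libraries, and a gene was called where its Benjamini-Hochberg adjusted p over all 21204 genes was under 0.05. The share of all genes called in the same comparison is given as the background. Where nothing says that libraries are separate animals, p-values measure the spread between these libraries, which may in part be technical. Of markers of the labelled tissue, all 15 skeletal muscle markers and all 10 osteoblast markers were detected in every group, and the chondrocyte marker Snorc was at 0 in immature mice at baseline and in mature mice at 0dpr. Replicate 3 of mature mice at 2dpr stood apart, with a mean correlation of 0.893 with the other libraries of its group, and the libraries of immature mice at 0dpr ranged from 0.922 to 0.950. The other libraries ranged from 0.947 to 0.981. Changes of the members at 2dpr in mature mice are given below with and without replicate 3.

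The promoters of the 4 secreted members that were called lower at 2dpr than at 0dpr at both ages are shown, since these falls are the main change described below. They run from 250 bases before to 50 bases after the transcription start that RefSeq gives (assembly GRCm38.p6), 5′ to 3′ on the strand of the gene. Capitals mark the letters GGCGCC, known from BMP-responsive SMAD elements, and CAGAC or its reverse complement GTCTG, the short SMAD box.
Bmp4, chr14:46390620-46390919, minus strand: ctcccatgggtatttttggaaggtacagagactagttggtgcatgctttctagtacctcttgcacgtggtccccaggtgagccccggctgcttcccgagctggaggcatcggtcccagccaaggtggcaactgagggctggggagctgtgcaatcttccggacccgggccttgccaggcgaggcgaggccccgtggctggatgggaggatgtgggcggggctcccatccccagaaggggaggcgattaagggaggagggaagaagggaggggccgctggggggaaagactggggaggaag
Bmp5, chr9:75775115-75775414, plus strand: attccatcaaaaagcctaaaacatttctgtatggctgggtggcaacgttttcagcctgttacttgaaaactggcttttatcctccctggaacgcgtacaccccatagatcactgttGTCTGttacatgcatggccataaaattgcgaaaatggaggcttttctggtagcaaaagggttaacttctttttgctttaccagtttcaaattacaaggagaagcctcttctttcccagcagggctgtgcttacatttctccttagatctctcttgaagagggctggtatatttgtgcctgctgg
Bmp6, chr13:38345466-38345765, plus strand: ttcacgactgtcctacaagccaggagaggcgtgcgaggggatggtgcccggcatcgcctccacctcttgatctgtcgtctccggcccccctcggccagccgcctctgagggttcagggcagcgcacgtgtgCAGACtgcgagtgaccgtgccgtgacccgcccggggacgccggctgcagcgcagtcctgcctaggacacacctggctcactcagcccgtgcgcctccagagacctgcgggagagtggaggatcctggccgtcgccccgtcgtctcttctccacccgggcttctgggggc
Grem1, chr2:113758599-113758898, minus strand: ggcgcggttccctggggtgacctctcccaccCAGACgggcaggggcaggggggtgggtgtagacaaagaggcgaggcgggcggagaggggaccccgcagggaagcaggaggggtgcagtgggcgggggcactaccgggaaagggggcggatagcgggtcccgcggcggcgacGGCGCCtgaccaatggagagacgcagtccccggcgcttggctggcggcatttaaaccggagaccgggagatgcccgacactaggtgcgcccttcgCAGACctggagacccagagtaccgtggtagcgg

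RefSeq promoters were matched for 6 of the 10 members, these 4 and the receptors Bmpr1a and Bmpr2. GGCGCC, which is its own reverse complement, was found once in the promoters of Grem1, Bmpr1a and Bmpr2, against 11.9% of all 32851 promoters of the same length. CAGAC was found on either strand once in Bmp5 and in Bmp6 and at 2 places in Grem1, against 49.6% of all promoters. TATAAA, the TATA box, was in none of the 6 and in 13.6% of all promoters. None of these matches overlapped another, and the Bmp4 window held none of the 3 motifs. The GC content was 64% in Bmp4, 43.3% in Bmp5, 69.3% in Bmp6 and 70.7% in Grem1, against a median of 52.7%. A match is a description of the letters and not a bound site. The starts that RefSeq gives for Bmp6, Bmpr1a and Bmpr2 lie inside the gene spans of the GENCODE annotation.

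Levels between genes were compared per length, as CPM per kilobase of the union of annotated exons. Bmpr1a was the highest of the 10, with a mean of 16.0 CPM per kilobase over the 39 libraries, followed by Id1 with 11.4, Bmpr2 with 7.14, Bmp5 with 5.85 and Bmp4 with 3.76. Grem1 followed with 2.68, Bmp6 with 1.88 and Bmp2 with 1.77, and Nog with 0.670 and Bmp7 with 0.591 CPM per kilobase were lowest. The ranges over libraries of each pair of neighbours in this order overlapped. Bmpr1a and Id1 were the 2 highest members in 26 libraries, and the same pair with Id1 first was highest in 8 more. Bmpr1a and Bmpr2 were read from 640 to 2565 and from 719 to 2945 reads per library, whereas Nog had 1 to 52 reads and Bmp7 0 to 49. From 0dpr to 2dpr in immature mice the SE of the log2 fold change was 0.581 for Grem1, 0.537 for Nog and 0.447 for Bmp7. Grem1 had 4 to 108 reads per library at 0dpr and 6 to 34 at 2dpr in these mice. Nog had 11 to 19 and 5 to 12 reads, and Bmp7 28 to 49 and 16 to 28. The source of these errors was not tested.

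**Figure D1:**
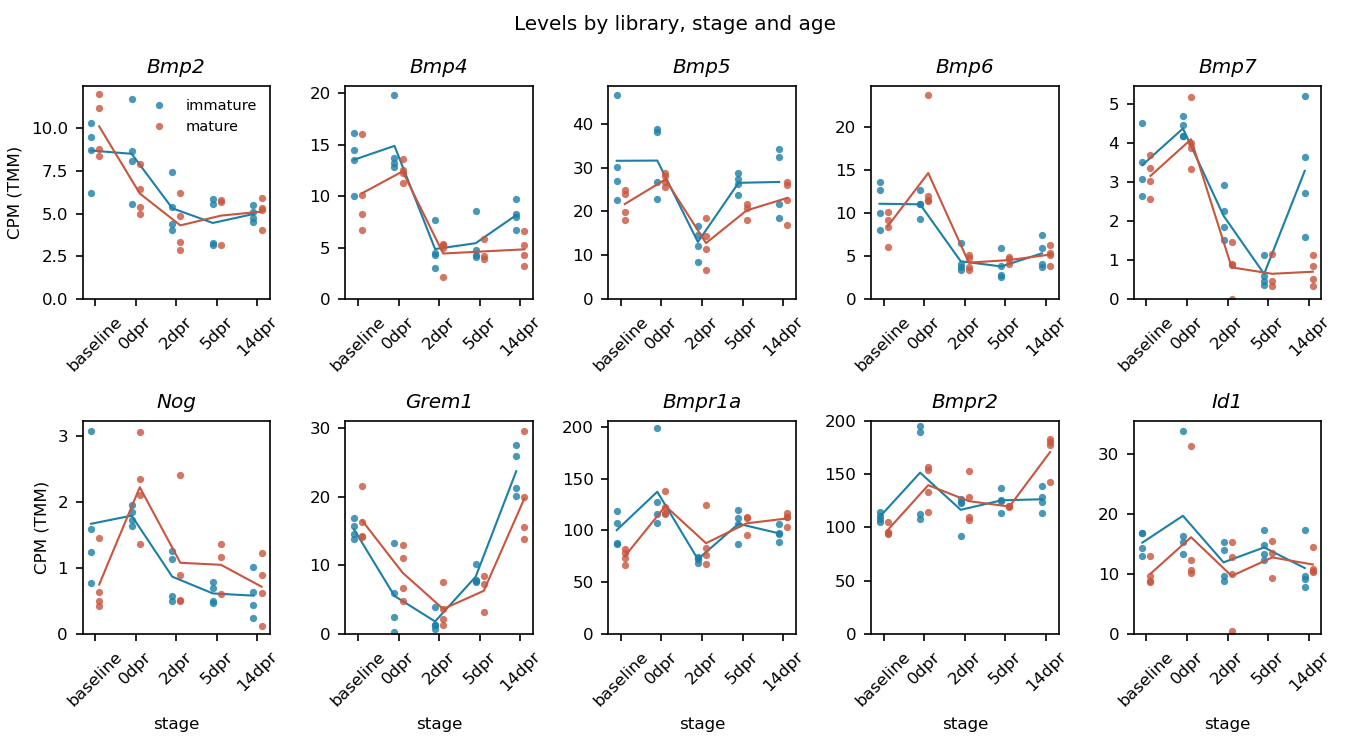
CPM (TMM-scaled) of the 10 genes against stage, each point 1 library and each line joining the group means, with immature mice in blue and mature mice in red (4 libraries per group, 3 for mature mice at 5dpr). The mean levels of the ligands drop between 0dpr and 2dpr at both ages, and Grem1 is lowest at 2dpr and highest at 14dpr. At 14dpr the libraries of the ages do not overlap for Bmp4, Bmp7 and Bmpr2, and edgeR called none of these differences. The share of all genes without overlap was not computed.

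The first question was how the pathway changed with the stage of repair. Over the 5 stages, 8 of the 10 genes differed in immature mice, where 54.3% of all genes did, and 9 of 10 in mature mice, where 63.0% did (quasi-likelihood F test). Id1 was called at neither age (adjusted p = 0.397 and 0.496), and Bmpr2 was called in mature mice (adjusted p = 0.000297). In immature mice Bmpr2 had an adjusted p of 0.0625 and was called with RLE factors in place of TMM, with the tool DESeq2 and with edgeR's filterByExpr filter on low counts (0.0285, 0.0181 and 0.0275) and without 0dpr replicate 2 or 4 (0.0227 and 0.00444). From 0dpr to 2dpr, 7 members fell in immature mice (background 22.2% of genes lower) and 6 in mature mice (24.9%), and none was called higher. Without replicate 3 of mature mice at 2dpr the same 6 members were called, with log2 fold changes of -1.25 for Bmp4, -1.17 for Bmp5, -1.88 for Bmp6, -1.92 for Bmp7, -1.97 for Grem1 and -0.71 for Bmpr1a, and of the others Bmp2 was -0.42, Nog -0.89 and Bmpr2 -0.27. The median log2 fold change of the 10 genes in this step was -1.04 at each age, beside -0.04 and -0.05 over all genes.

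Bmp4, a ligand expressed in early cartilage and bone precursors, lies on chromosome 14 (46383520 to 46390669, minus strand, GRCm38). In immature mice its level was 12.8, 13.7, 19.8 and 13.2 CPM at 0dpr and 7.64, 4.50, 3.02 and 4.30 CPM at 2dpr. Mature mice had 12.2, 13.6, 12.5 and 11.3 CPM at 0dpr and 4.96, 5.28, 2.11 and 5.37 CPM at 2dpr. No library at 2dpr reached a library of 0dpr at either age. Bmp4 fell by 1.62 on the log2 scale in immature mice (SE 0.298, adjusted p = 3.09e-05, edgeR), which is 3.07-fold, and by 1.47 in mature mice (SE 0.296, adjusted p = 9.30e-05). It was still low in mature mice at 14dpr, at 3.25, 6.59, 5.24 and 4.26 CPM, against 10.1, 8.30, 6.70 and 16.0 CPM at baseline (log2 fold change -1.08, SE 0.297, adjusted p = 0.00430). In immature mice the same comparison gave -0.73 (SE 0.289, adjusted p = 0.0525) and was not called. It was called without baseline replicate 6 (-0.85, adjusted p = 0.0370) and under 4 of 7 other settings, with RLE factors (adjusted p = 0.0425), DESeq2 (0.0253), the libraries compared alone (0.00602) and the replicate block (0.0314).

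Bmp6, a ligand of cartilage and of iron regulation in the liver, lies on chromosome 13 (38345107 to 38500302, plus strand). In immature mice it went from 9.26, 11.0, 12.7 and 11.1 CPM at 0dpr to 6.49, 4.05, 3.35 and 3.72 CPM at 2dpr, with a log2 fold change of -1.33 (SE 0.279, adjusted p = 0.000188). Mature mice went from 23.7, 11.4, 12.0 and 11.5 CPM to 3.39, 4.76, 5.11 and 3.70 CPM, with a log2 fold change of -1.79 (SE 0.279, adjusted p = 1.80e-06). The groups did not overlap at either age, and replicate 1 of mature mice at 0dpr lay far above the other 3 libraries. Without each library in turn the change in mature mice lay between -1.90 and -1.49 and was called every time. By 14dpr Bmp6 was 1.05 below baseline on the log2 scale in immature mice (adjusted p = 0.00305) and 0.71 below it in mature mice, where the call was lost in 6 of 8 fits that left out 1 library (adjusted p = 0.0455, range 0.028 to 0.138), with a value of -0.61, -0.66 and -0.71 without baseline replicates 1, 2 and 4 and -0.59, -0.70 and -0.73 without 14dpr replicates 2, 3 and 4. The rise of Bmp6 at 0dpr in mature mice, by 0.79 over baseline (SE 0.270, adjusted p = 0.0325), rested on the same high library, without which it was 0.48 (adjusted p = 0.240). It was also lost without baseline replicates 2, 3 and 4 (0.83, 0.66 and 0.73). The exons of Bmp6 share 224 bases with those of Txndc5 on the other strand, a gene at a mean of 197 CPM, and the setting for strand in the authors' counting is not given in the sources used here. Levels of Bmp6 are therefore uncertain.

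Bmp5, a ligand of early skeletal condensations, lies on chromosome 9 (75775364 to 75900310, plus strand). It fell and came back. In immature mice its level was 38.1, 22.8, 38.8 and 26.7 CPM at 0dpr, 14.7, 8.55, 12.2 and 16.7 CPM at 2dpr, and 27.3, 23.8, 28.8 and 26.2 CPM at 5dpr. The 2dpr libraries lay below those of both neighbouring stages. The fall was -1.28 (SE 0.248, adjusted p = 6.51e-05) and the return 1.03 (SE 0.247, adjusted p = 0.00617) on the log2 scale, and both were called without each library in turn. Mature mice showed a fall of 1.11 (SE 0.247, adjusted p = 0.000332) to 11.5, 18.6, 14.4 and 6.62 CPM, and the later value of 0.67 from 2dpr to 5dpr was not called (SE 0.261, adjusted p = 0.0803). It was called only without replicate 2 of 2dpr (0.92, adjusted p = 0.0188). At 14dpr the log2 fold change of Bmp5 over baseline was -0.24 in immature and 0.09 in mature mice (adjusted p = 0.498 and 0.822). The exons of Bmp5 share 1878 bases with Gm26903 on the other strand, and those of Bmp4 and Bmpr1a share 89 and 290 bases with Gm15217 and Gm17110, none of which is in the filtered table.

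Bmp2, the ligand needed for fracture healing to begin, lies on chromosome 2 (133552159 to 133562885, plus strand). Immature mice had 10.3, 9.48, 8.74 and 6.22 CPM at baseline and 4.51, 4.77, 5.10 and 5.52 CPM at 14dpr, a log2 fold change of -0.80 (SE 0.270, adjusted p = 0.0211). Mature mice had 11.2, 8.80, 8.38 and 12.0 CPM at baseline and 5.91, 4.02, 5.24 and 5.30 CPM at 14dpr, a log2 fold change of -0.98 (SE 0.269, adjusted p = 0.00427). The groups did not overlap at either age. The call was lost in immature mice without baseline replicate 2 or 3 or 14dpr replicate 1 (-0.71, -0.74 and -0.76). The step from 0dpr to 2dpr was -0.67 in immature mice (adjusted p = 0.0420), where the libraries of the 2 stages overlapped and the call was lost without 0dpr replicates 1 and 4 (-0.46 and -0.69) and 2dpr replicates 1, 3 and 4 (-0.59, -0.67 and -0.56). The mature value was -0.52 (adjusted p = 0.117) and was called only without 2dpr replicate 1 (-0.75, adjusted p = 0.0336).

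Bmp7, a ligand active in bone and kidney, lies on chromosome 2 (172868012 to 172940321, minus strand). In immature mice it was 4.18, 4.68, 4.46 and 4.17 CPM at 0dpr, 2.93, 2.25, 1.51 and 1.86 CPM at 2dpr, 0.476, 0.376, 0.606 and 1.13 CPM at 5dpr, and 1.58, 3.65, 2.71 and 5.20 CPM at 14dpr. Each of these stages was clear of the one before it. The change from 0dpr to 2dpr was -1.03 (SE 0.447, adjusted p = 0.0587). It was called without 2dpr replicate 1 (-1.23, adjusted p = 0.0475) and under 5 of 7 other settings, with RLE factors (adjusted p = 0.0387), DESeq2 (0.00447), the filterByExpr filter (0.0422), the libraries compared alone (0.0268) and the replicate block (0.0459). The change from 2dpr to 5dpr was -1.66 (SE 0.492, adjusted p = 0.0293), and the rise from 5dpr to 14dpr was 2.29 (SE 0.489, adjusted p = 0.00431), or 4.88-fold, and was called without each library in turn. In this last step 1.73% of all genes were called higher and Bmp7 was the single member among them. The fall from 2dpr to 5dpr rests on 3 to 13 reads per library at 5dpr and was lost without 2dpr replicates 1 and 2 (-1.47 and -1.64) and 5dpr replicates 2, 3 and 4 (-1.57, -1.50 and -1.61), with an adjusted p of up to 0.0936.

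In mature mice Bmp7 was 5.18, 3.99, 3.88 and 3.33 CPM at 0dpr, 0.909, 1.47, 0.00 and 0.879 CPM at 2dpr, 0.345, 0.457 and 1.15 CPM at 5dpr, and 0.844, 1.12, 0.334 and 0.519 CPM at 14dpr. The library at 0 was replicate 3 of 2dpr, the library that stood apart, and its 0 reads allow a level of up to 0.333 CPM (3 reads, counting error only). The fall from 0dpr to 2dpr was -2.27 (SE 0.472, adjusted p = 0.000136) and was called in 8 of 8 fits without 1 library, that library included (range -2.66 to -1.92). The level stayed low, with a log2 fold change of -2.15 from baseline to 14dpr (SE 0.493, adjusted p = 0.000710), whereas in immature mice that value was -0.06 (SE 0.438, adjusted p = 0.938).

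Of the antagonists, Grem1, gremlin 1, lies on chromosome 2 (113746164 to 113758646, minus strand). In immature mice it was 15.8, 13.8, 14.6 and 16.9 CPM at baseline, 2.54, 13.3, 0.364 and 5.98 CPM at 0dpr, 1.36, 0.675, 1.34 and 3.95 CPM at 2dpr, 7.77, 7.51, 10.2 and 7.90 CPM at 5dpr, and 20.1, 27.6, 21.3 and 25.9 CPM at 14dpr. The 0dpr libraries spread more widely than those of any other stage. Grem1 fell from 0dpr to 2dpr by 1.60 on the log2 scale (SE 0.581, adjusted p = 0.0242), then rose to 5dpr by 2.21 (SE 0.570, adjusted p = 0.0110). The fall depended on replicate 2 of 0dpr, without which it was -0.62 (adjusted p = 0.422), and it was also lost without 2dpr replicates 1, 2 and 3 (-1.49, -1.34 and -1.47). Without that same 0dpr library Grem1 was already lower at 0dpr than at baseline, with a log2 fold change of -2.46 (adjusted p = 0.00252), against -1.47 with it (adjusted p = 0.0631, or 0.0351 by DESeq2). The rise was lost without 2dpr replicates 2 and 3 (1.95 and 2.08). From 5dpr to 14dpr every library at 14dpr was above every library at 5dpr, but the change of 1.50 (SE 0.506) had an adjusted p of 0.104, or 0.000129 in the fit on the libraries compared alone.

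In mature mice Grem1 was 14.3, 16.3, 21.5 and 14.1 CPM at baseline, 6.75, 13.0, 4.88 and 11.1 CPM at 0dpr, 2.15, 3.64, 7.55 and 1.25 CPM at 2dpr, 7.25, 3.15 and 8.48 CPM at 5dpr, and 29.6, 20.0, 13.8 and 15.6 CPM at 14dpr. The lowest stage was again 2dpr. The fall from 0dpr to 2dpr was -1.34 (SE 0.535, adjusted p = 0.0373), and the call was lost without 0dpr replicates 2 and 4 (-1.07 and -1.19) and 2dpr replicates 1, 2 and 4 (-1.16, -1.36 and -1.02). Replicate 3 was the highest of the 2dpr libraries, and without it the fall was -1.97 (adjusted p = 0.00401). The rise from 5dpr to 14dpr was 1.66 (SE 0.563, adjusted p = 0.0893), without overlap between the groups and without a call, though DESeq2 and the fit on the libraries compared alone called it (adjusted p = 0.0350 and 0.0109).

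Nog, the antagonist noggin, lies on chromosome 11 (89300638 to 89302332, minus strand) and was read from few counts. Mature mice had 0.629, 0.419, 0.493 and 1.46 CPM at baseline and 2.35, 1.37, 2.11 and 3.06 CPM at 0dpr, a log2 fold change of 1.57 (SE 0.541, adjusted p = 0.0334). In immature mice it was 3.08, 1.24, 1.59 and 0.766 CPM at baseline and 0.244, 1.01, 0.434 and 0.637 CPM at 14dpr, a log2 fold change of -1.47 (SE 0.554, adjusted p = 0.0394). In both comparisons 1 library reached into the other group. The first was lost without baseline replicates 1, 2 and 3 (1.50, 1.36 and 1.42) and 0dpr replicates 1, 3 and 4 (1.57, 1.62 and 1.33). The second was lost without baseline replicates 2 and 4 (adjusted p = 0.209 and 0.0586) and 14dpr replicates 1, 3 and 4 (-1.24, -1.36 and -1.51). From 0dpr to 2dpr the log2 fold change of Nog was -1.05 in immature and -0.98 in mature mice, and neither was called (adjusted p = 0.113 and 0.116). The mature value was called only without 2dpr replicate 4 (-1.80, adjusted p = 0.00739).

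Of the receptors, Bmpr1a (chromosome 14, 34410734 to 34503341, minus strand) encodes a type I receptor of BMP2 and BMP4. In immature mice it was 127, 107, 199 and 116 CPM at 0dpr, 73.0, 72.0, 68.8 and 74.7 CPM at 2dpr, and 112, 106, 120 and 87.3 CPM at 5dpr. The 4 libraries at 2dpr lay close together and below all of the other 2 stages. It fell by 0.93 (SE 0.156, adjusted p = 7.77e-06) and rose again by 0.56 (SE 0.155, adjusted p = 0.0194), a call lost without 2dpr replicate 3 or 5dpr replicate 2 or 4 (0.54, 0.53 and 0.49). Mature mice went from 138, 117, 123 and 116 CPM at 0dpr to 83.2, 75.8, 124 and 67.5 CPM at 2dpr, a log2 fold change of -0.50 (SE 0.155, adjusted p = 0.00787). Replicate 3 of 2dpr was the one library within the 0dpr range, and without it the change was -0.71, the largest of the fits without 1 library.

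Bmpr2 (chromosome 1, 59763400 to 59879014, plus strand) is the type II receptor. In mature mice it was 95.7, 95.2, 94.3 and 105 CPM at baseline, 154, 133, 157 and 115 CPM at 0dpr, 107, 110, 153 and 129 CPM at 2dpr, 119, 120 and 120 CPM at 5dpr, and 177, 180, 183 and 143 CPM at 14dpr. All libraries of 0dpr and of 14dpr were above all of baseline. The rise at 0dpr was 0.52 (SE 0.148, adjusted p = 0.0101) and that at 14dpr 0.81 (SE 0.148, adjusted p = 4.39e-05), and both held in 8 of 8 fits without 1 library. In immature mice the rise at 0dpr was 0.47 (SE 0.148, adjusted p = 0.0367), with 2 libraries at 195 and 190 CPM and 2 at 113 and 108 CPM. The call was lost without 0dpr replicates 1 and 3 (0.29 and 0.37) and without each of baseline replicates 2, 3, 4 and 6 (0.47, 0.42, 0.45 and 0.45). The value at 14dpr was 0.21 (SE 0.147, adjusted p = 0.308). From 0dpr to 2dpr Bmpr2 fell by 0.38 in immature mice (SE 0.147, adjusted p = 0.0359), a call lost without 0dpr replicates 1 and 3 (-0.21 and -0.28) and 2dpr replicate 1 (-0.28). The mature value was -0.16 (adjusted p = 0.388).

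The response gene Id1 (chromosome 2, 152736251 to 152737410, plus strand) was called in no comparison. Its log2 fold change from 0dpr to 2dpr was -0.72 in immature mice, with a 95% interval of -1.58 to 0.14, and -0.71 in mature mice, with an interval of -1.58 to 0.15. At 0dpr it was 13.4, 16.3, 15.3 and 33.9 CPM in immature and 31.4, 10.7, 12.4 and 10.1 CPM in mature mice, so that 1 library of each age lay far above the others. At 2dpr in mature mice it was 10.0, 15.4, 0.555 and 12.8 CPM, the low value again in replicate 3, which held 5 reads of the gene. Without that library the log2 fold change was -0.33 and not called (adjusted p = 0.406). The intervals hold both 0 and a fall larger than that of Bmp5.

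Before the first step of repair, the tissue of resected animals at 0dpr already differed from baseline. In immature mice Bmpr2 was the 1 member called higher (background 5.98%), and Bmpr1a, at 0.45 (adjusted p = 0.0526), was called with RLE factors, DESeq2 and the filterByExpr filter (adjusted p = 0.0349, 0.0215 and 0.0289) and without 0dpr replicate 2 or 4 (0.0259 and 0.0254). In mature mice 4 were called, Bmp6 at 0.79 (adjusted p = 0.0325), Nog, Bmpr1a at 0.72 (adjusted p = 0.00102) and Bmpr2 (background 11.9%). Bmp2 in mature mice was at -0.71 (adjusted p = 0.0525, or 0.0322 by DESeq2). The sums of the 15 skeletal muscle markers went up without overlap over this step, from between 79748 and 103336 CPM to between 113629 and 207177 CPM in immature mice and from between 43398 and 84094 CPM to between 116545 and 234959 CPM in mature mice. With the mean log2 level of these markers as a covariate no member was called at 0dpr. Bmpr2 in immature mice was then 0.43 (adjusted p = 0.107), and in mature mice Bmp6 was 0.78, Nog 0.55, Bmpr1a 0.50 and Bmpr2 0.43 (adjusted p = 0.339, 0.767, 0.222 and 0.287). In mature mice the mean log2 muscle level was 10.86 to 11.89 at baseline and 12.12 to 13.13 at 0dpr, without overlap. Muscle and stage therefore cannot be told apart there. Between 2dpr and 5dpr, Bmp5, Grem1 and Bmpr1a rose and Bmp7 fell in immature mice (background 4.37% higher and 3.68% lower). No member was called in mature mice in this step (14.5% in either direction). Bmp5 alone of the members had an unadjusted p under 0.05 there, beside 5842 of all 21204 genes. Between 5dpr and 14dpr no member was called in mature mice (4.18%). Grem1 and Bmpr2 had an unadjusted p under 0.05 there, beside 3905 of all 21204 genes. Both were called by DESeq2 (adjusted p = 0.0350 and 0.0257).

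Against baseline, the members lower at 14dpr were Bmp2, Bmp6 and Nog in immature mice (15.1%) and Bmp2, Bmp4, Bmp6 and Bmp7 in mature mice (16.4%), and Bmpr1a, at 0.57 (adjusted p = 0.00373), and Bmpr2 were higher in mature mice (17.1%). The muscle marker sums at 14dpr were 14545 to 24686 CPM in immature and 19158 to 34018 CPM in mature mice, below those of baseline. The sums of the 9 fibroblast markers went from between 6043 and 8164 CPM at baseline to between 22008 and 33312 CPM at 14dpr in immature mice and from between 1918 and 3588 CPM to between 29098 and 39252 CPM in mature mice, and those of the 10 macrophage markers from between 1927 and 2787 CPM to between 6681 and 9182 CPM and from between 2310 and 3566 CPM to between 7858 and 9765 CPM. With the muscle covariate the calls of Bmp2 remained at both ages (-1.53 and -1.42), as did those of Bmp7, Bmpr1a and Bmpr2 in mature mice (-2.02, 0.80 and 0.89). Those of Bmp6 were lost at both ages (-1.04 and -0.70, adjusted p = 0.196 and 0.177), as were that of Bmp4 in mature mice (-0.85, adjusted p = 0.101) and that of Nog in immature mice, whose value changed sign to 0.38. The mean log2 muscle level went from between 11.74 and 12.17 to between 9.39 and 10.14 in immature mice. In mature mice it went from between 10.86 and 11.89 to between 9.69 and 10.56. Without overlap at either age, muscle and stage cannot be told apart by the calls kept or lost. The part of the fibroblast and macrophage markers was not tested. Steps that share a stage share its libraries, so that a low 2dpr group enters both the fall and the return.

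**Figure D2:**
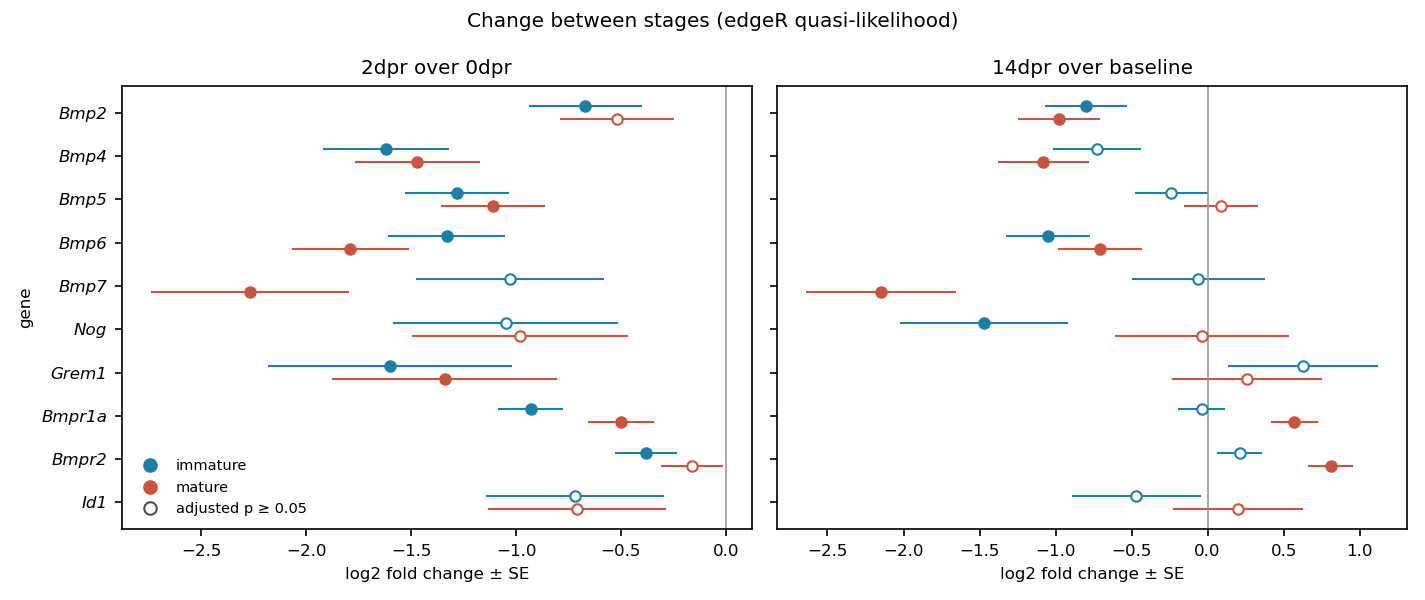
Log2 fold change ± SE (x axis) of each gene (y axis) from 0dpr to 2dpr at left and from baseline to 14dpr at right, in immature (blue) and mature mice (red), with open symbols where the adjusted p was 0.05 or more. All 20 points of the left panel lie below 0, whereas at right the ligands other than Bmp5 lie below 0, Bmp7 only in mature mice by more than its SE, and the receptors lie above 0 in mature mice.

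Markers of other cell types moved from 0dpr to 2dpr as well. The sums of the 15 skeletal muscle markers were 113629 to 207177 CPM at 0dpr and 16937 to 27628 CPM at 2dpr in immature mice, and 116545 to 234959 and 14102 to 28095 CPM in mature mice. The 10 macrophage markers went the other way, from 1150 to 1963 CPM to 7594 to 9346 CPM in immature and from 1252 to 2368 CPM to 7574 to 9057 CPM in mature mice. The 8 adipocyte markers went from between 2581 and 3819 CPM to between 742 and 1181 CPM in immature mice and from between 1999 and 3332 CPM to between 522 and 851 CPM in mature mice, and the 6 B cell markers from between 33.4 and 148 CPM to between 14.3 and 24.4 CPM and from between 40.4 and 232 CPM to between 3.20 and 17.2 CPM. Their part in the falls of the members was not tested. In bulk tissue, fewer cells of a type and less RNA per cell cannot be told apart. With the mean log2 level of the muscle markers as a covariate, no member was called from 0dpr to 2dpr at either age. The estimates for Bmp4 were then -1.08 and -0.83, for Bmp5 -1.35 and -1.20, for Bmp6 -1.30 and -1.76 and for Grem1 -2.54 and -2.48 in immature and mature mice. Bmpr1a and Nog did not keep their sign at both ages, with 0.11 for Bmpr1a in mature mice and 1.32 and 1.73 for Nog, and the value of Bmpr2 in mature mice became 0.06. Muscle markers and stage nearly coincide in this step, so that the 2 cannot be told apart. In the later steps, the rises of Bmp5 (1.04, adjusted p = 0.0139) and Grem1 (2.42, adjusted p = 0.0119) to 5dpr and of Bmp7 to 14dpr (2.35, adjusted p = 0.00697) in immature mice were called with the covariate too, as was the fall of Bmp7 to 5dpr (-1.73, adjusted p = 0.0449), whereas the rise of Bmpr1a to 5dpr was not (0.45, adjusted p = 0.109). The mean log2 muscle level in immature mice was 9.37 to 10.00 at 2dpr, 10.15 to 10.57 at 5dpr and 9.39 to 10.14 at 14dpr. Neighbouring stages did not overlap, so that the same limit holds for these steps.

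**Figure D3:**
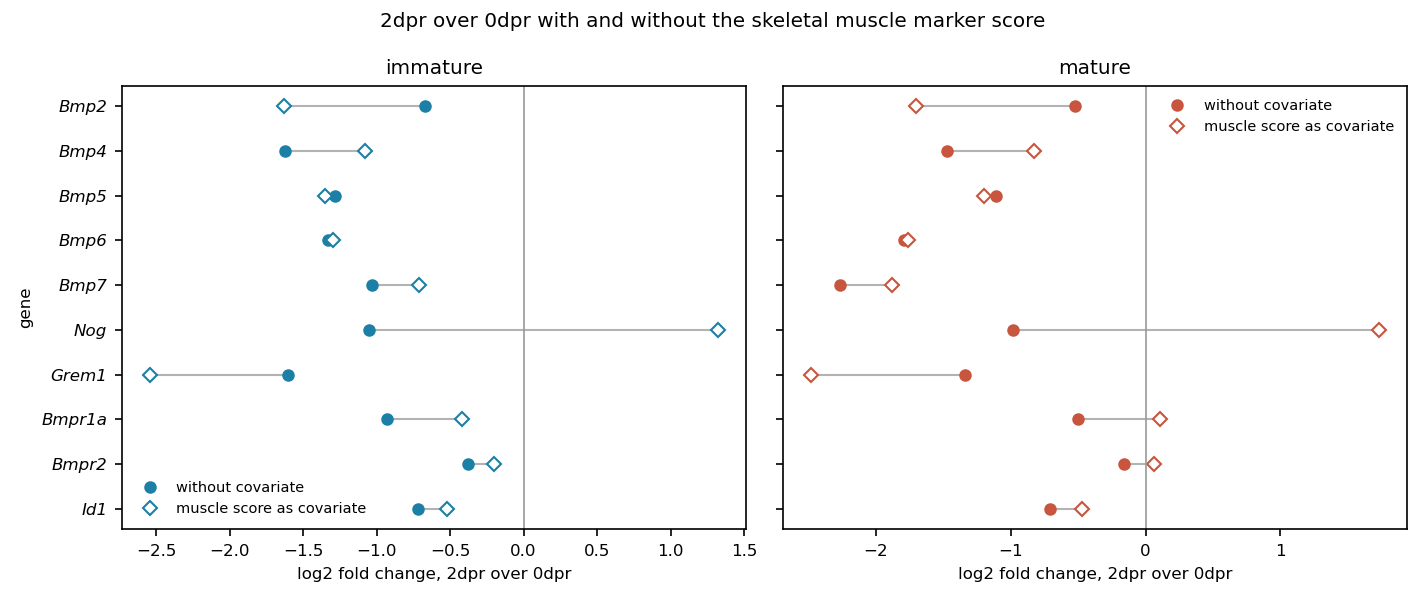
Log2 fold change from 0dpr to 2dpr (x axis) of each gene (y axis) without (filled circles) and with the skeletal muscle marker score as a covariate (open diamonds), immature mice at left and mature mice at right. Bmp5 and Bmp6 hardly move, Bmp2 and Grem1 move further below 0, and Nog crosses to above 0 at both ages.

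The second question was whether the pathway differed between immature and mature mice. No member was called at baseline (background 0.585%), 0dpr (0.726%), 2dpr (0.627%), 5dpr (0%) or 14dpr (0.00943%) by edgeR. At an unadjusted p under 0.05 there were 3 members at baseline, 0 at 0dpr, 1 at 2dpr, 0 at 5dpr and 3 at 14dpr. Of all 21204 genes, 2482, 2278, 2812, 1081 and 968 were under this cut at the same stages. DESeq2 called Bmp7 at 2dpr and at 14dpr. The members under the cut at baseline were Bmp5, Nog and Bmpr1a. They were 0.54 (95% interval 0.05 to 1.03), 1.15 (0.06 to 2.25) and 0.42 (0.10 to 0.73) higher in immature mice on the log2 scale. At 14dpr Bmp7 was 1.58, 3.65, 2.71 and 5.20 CPM in immature and 0.844, 1.12, 0.334 and 0.519 CPM in mature mice, without overlap. The difference was 2.21 (95% interval 1.21 to 3.22), with an unadjusted p of 7.55e-05 and an adjusted p of 0.146 by edgeR, or 0.000523 by DESeq2. At 2dpr the difference of Bmp7 was 1.34 (0.38 to 2.30, adjusted p = 0.197, or 0.0464 by DESeq2), and 0.98 without replicate 3 of mature mice (adjusted p = 0.372). Bmp4 at 14dpr was 0.75 higher (0.15 to 1.36, adjusted p = 0.973) and Bmpr2 0.43 lower in immature mice (interval of the log2 fold change -0.73 to -0.13, adjusted p = 0.822). The 14dpr tissue of the 2 ages was compared by other markers too. The summed osteoblast markers ran from 16751 to 27571 CPM in immature and 11562 to 22914 CPM in mature mice, the chondrocyte markers from 823 to 3613 and 249 to 3643 CPM, and the B cell markers from 34.1 to 134 and 14.9 to 48.6 CPM. Their part in the difference of Bmp7 was not tested.

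Averaged over the 5 stages, Bmp7 was the single member called, 0.76 higher in immature mice (SE 0.215, adjusted p = 0.0481, background 1.61% higher). The call sat at the threshold. Of the 39 fits that left out 1 library, 13 kept it, with values from 0.68 to 0.89 and adjusted p from 0.0133 to 0.104, and it was lost with the replicate number as a block (0.66, adjusted p = 0.121). Bmp4 and Bmp5 were 0.36 and 0.28 higher and not called (adjusted p = 0.190 and 0.226).

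**Figure D4:**
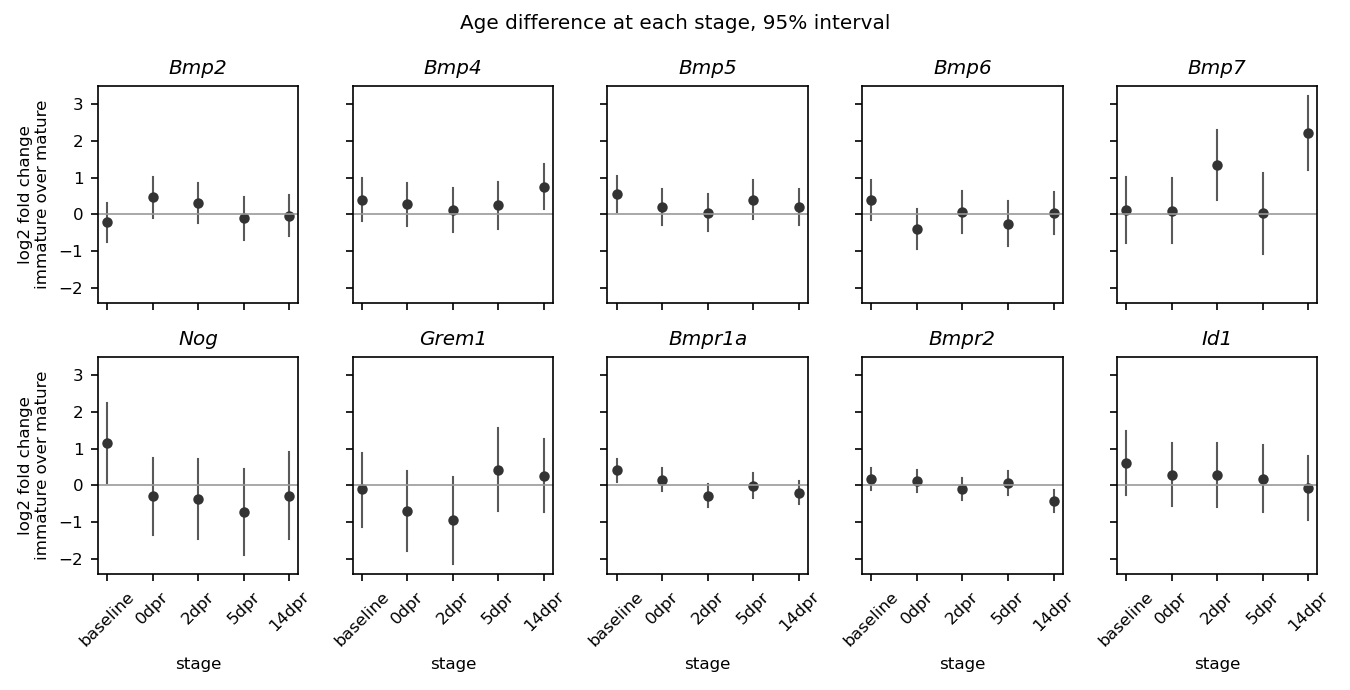
Log2 fold change of immature over mature mice (y axis) at each stage (x axis) for each gene, with 95% intervals. Most intervals cross 0, and the one farthest from 0 is that of Bmp7 at 14dpr, from 1.21 to 3.22.

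Whether a step differed in size by age was tested as an interaction. No member was called from baseline to 0dpr (background 0.0141%), from 0dpr to 2dpr (0.0613%), from 2dpr to 5dpr (0%), from 5dpr to 14dpr (0%) or from baseline to 14dpr (0.0472%). At an unadjusted p under 0.05 there were 1, 0, 0, 2 and 3 members in these steps. Of all 21204 genes, 1712, 2382, 1715, 901 and 1693 were under this cut. DESeq2 called 1 member, Bmp7 from baseline to 14dpr (2.14, adjusted p = 0.0381). For that step edgeR gave Bmp7 2.09 (95% interval 0.76 to 3.43, adjusted p = 0.334), Bmpr1a -0.62 (-1.06 to -0.17, adjusted p = 0.438) and Bmpr2 -0.60 (-1.02 to -0.18, adjusted p = 0.403). For the fall from 0dpr to 2dpr the intervals of the difference were -0.99 to 0.69 for Bmp4, -0.88 to 0.53 for Bmp5 and -0.33 to 1.25 for Bmp6. For Bmp7 the difference of 1.24 in this step was not called either (-0.06 to 2.54, adjusted p = 0.464).

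The other genes of the pathway were read from 5 lists of 49 genes in all, of which 44 were in the filtered table. The dependence of these genes on single libraries was not tested. Their values for mature mice at 2dpr include replicate 3, the library that stood apart. From 0dpr to 2dpr, 14 were called lower and 3 higher in immature mice and 17 lower and 7 higher in mature mice, beside 22.2% and 24.9% of all genes lower and 21.8% and 22.7% higher. With the muscle covariate, 1 was called lower and 0 higher in immature mice and 2 lower and 1 higher in mature mice. Of 7 other ligands, Bmp3 fell by 1.88 in immature and 1.50 in mature mice, Bmp8a fell by 1.45 and 1.82, and Bmp8b, called lower in mature mice, had no read in any of their 2dpr libraries and a mean of 0.325 CPM at 0dpr, so that no fold is given, and in immature mice it had a mean of 0.136 CPM at 0dpr and 0.342 CPM at 2dpr without a call (adjusted p = 0.441). Of 12 other antagonists, 6 fell and 1 rose in immature mice and 3 fell and 2 rose in mature mice. Dand5 fell by 1.49 and 1.67, Chrdl2, chordin-like 2, by 2.78 in immature mice, with -2.00 in mature mice (adjusted p = 0.0788), and Fstl3 rose by 1.50 in mature mice, with 0.28 in immature mice (adjusted p = 0.388). The BMP-binding regulator Bmper rose at both ages, by 1.17 (adjusted p = 1.76e-06) and 1.33 (adjusted p = 2.04e-07), and Sost, which encodes the osteocyte product sclerostin, went from 7.68 ± 5.40 at 0dpr to 0.138 ± 0.135 CPM at 2dpr in mature animals (SD, n = 4; log2 value -5.72, adjusted p = 1.61e-06), with -1.16 in immature mice (adjusted p = 0.187).

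Of 10 other receptors and coreceptors, 4 fell and 1 rose in immature and 5 fell and 2 rose in mature mice. The largest change was that of Hjv, the BMP coreceptor hemojuvelin, which skeletal muscle is known to express, at -2.60 (adjusted p = 4.12e-09) and -2.73 (adjusted p = 1.04e-09). Acvr2b, an activin type II receptor, fell by 1.23 and 2.40 (adjusted p = 0.0241 and 4.10e-05). Of 8 Smad and Smurf genes, the inhibitory Smad6 fell by 1.28 (adjusted p = 0.00567) and 1.89 (adjusted p = 8.57e-05), and in mature mice Smad9 fell by 2.06 (adjusted p = 0.00646) and Smad1 rose by 0.85 (adjusted p = 1.22e-05), where immature mice had -1.11 and 0.31 without a call (adjusted p = 0.137 and 0.0914). Of 7 response genes besides Id1, 1 was called in immature mice, upwards, and 5 were called in mature mice, 4 of them downwards. Id2 rose by 1.10 (adjusted p = 2.11e-08) and 1.41 (adjusted p = 9.45e-11), and in mature mice Id4, Dlx5 and Hey1 fell by 2.07, 3.55 and 1.41, where immature mice had -1.13, -1.08 and -0.44 without a call (adjusted p = 0.0694, 0.0819 and 0.372). Of the genes named here as called at 1 age, 8 were Chrdl2, Fstl3, Sost, Smad9, Smad1, Id4, Dlx5 and Hey1. Their interaction had an adjusted p between 0.124 for Sost and 0.851 for Chrdl2. For Bmp8b, also called at 1 age, no interaction value is given.

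From baseline to 14dpr, 14 of the 44 genes were called higher, 2 lower and 28 neither in immature mice, and 17 higher, 4 lower and 23 neither in mature mice, beside 16.4% and 17.1% of all genes higher and 15.1% and 16.4% lower. With the muscle covariate these counts were 5 higher and 0 lower in immature and 14 higher and 2 lower in mature mice. Bmper rose by 1.95 and 2.53, Fst, follistatin, by 0.95 and 1.42, Smad1 by 1.18 and 1.35, and Smurf1, a ubiquitin ligase of the pathway, by 0.65 and 0.78, each called at both ages. The cartilage ligand Gdf5 went from 0.193 ± 0.0584 to 1.92 ± 1.48 CPM in mature mice (SD, n = 4, log2 fold change 3.22, adjusted p = 0.00280), with a log2 fold change of 0.82 in immature mice (adjusted p = 0.523). Bmp3 fell by 2.34 in mature mice (adjusted p = 2.29e-05), with -0.93 in immature mice (adjusted p = 0.0660). The inhibitory pseudoreceptor Bambi rose by 1.53 in immature mice, from 10.8 ± 2.62 to 31.2 ± 10.2 CPM (adjusted p = 0.000218), with 0.67 in mature mice (adjusted p = 0.0977). The interaction for Gdf5, Bmp3 and Bambi in this comparison had an adjusted p of 0.648, 0.503 and 0.647.

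Between the ages, Bambi was called over the average of the stages, at 0.52 higher in immature mice (adjusted p = 0.0427, edgeR). It was the only 1 of the 44 genes called there, beside 1.61% of all genes higher. None of the 44 was called between the ages at any of the stages taken alone. The call lay near the threshold, and its dependence on single libraries was not tested.

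The genes most like each member over the 39 libraries were found among 16147 genes with a mean of at least 1 CPM, by Pearson's r of log2 CPM. These values describe libraries that share stages and tissue makeup. For Bmp4 they were Esr1, Krba1 and Klf15 (r = 0.90, 0.90 and 0.89), for Bmp6 Dmac2, Mpc2 and Pdzd2 (0.89, 0.88 and 0.88) and for Bmp5 Nbea, Itga8 and Chodl (0.83, 0.83 and 0.82). For Bmp2 they were Epha2, Slc1a3 and Pla2g5 (0.78, 0.75 and 0.75) and for Bmp7 Irf4, Pank4 and Patz1 (0.82, 0.82 and 0.81). Nog was most like Extl1, Myh7 and Slc20a2 (0.77, 0.76 and 0.76), and Grem1 most like Serpina3g, Hvcn1 and Myo1d (0.83, 0.83 and 0.81). Bmpr1a was most like Filip1l, Tmem106b and Rhoq (0.89, 0.88 and 0.88), and Bmpr2 most like Nbeal1, Aff4 and Smad4 (0.87, 0.86 and 0.79). Id1 was most like Zfp358, Cyb5rl and Pex14 (0.90 each), with replicate 3 of mature mice at 2dpr among the points.

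Between the members themselves, the highest r were those of Bmp4 with Bmp7 (0.80) and with Bmp6 (0.79), and r of Bmpr1a with Bmpr2 was 0.65. For Grem1, r with the other members ran from -0.26 with Nog to 0.44 with Bmp5, and its r with the osteoblast score was 0.71. Bmp4 and Bmp6 followed the skeletal muscle score (r = 0.79 and 0.81) and went against the macrophage score (-0.85 for each). Their r was nearly as high with the adipocyte (0.71 and 0.76), B cell (0.76 and 0.67) and erythroid scores (0.69 and 0.66). For Bmp7, r with the B cell score was 0.75. The part of tissue makeup in these relations was not tested.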

How the data were processed

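RNA of 39 libraries was analysed. The authors used a stranded TruSeq kit and paired-end reads on NovaSeq in separate runs, but which library was in which run is not given in the sources used here, so that run and group cannot be told apart. Per the labels, STAR 2.5.2a and the GRCm38 build were used. The deposited files hold raw counts per gene, with and without a filter on low counts (21204 of 48733 genes kept), and a normalised signal that equals edgeR's TMM-scaled CPM of the filtered counts to a relative difference of 5e-15. Counts of the filtered table were fitted with edgeR 4.0.16 in R 4.3.3 (TMM factors, 1 coefficient per group, glmQLFit and glmQLFTest, Benjamini-Hochberg adjustment). The steps were tested on simulated data. Log2 CPM used a prior count of 2. DESeq2 1.42.0, RLE factors, other filters, fits on the libraries compared, a replicate block, a muscle score covariate and each library left out were alternatives.

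The members, lists and rule for named genes were chosen with earlier results of these data known. All members were named. Pathway genes were named by the largest absolute log2 fold change among those called, at most 4 per list and comparison, with the value at the other age beside it, and Bambi also for its call between the ages. A result for 1 listed gene is not reported here. For each member 3 like genes were named. Positions come from GENCODE vM21. Depth sets the precision: totals are given in the report, and floors use 3 reads and cover counting error only. Replicate numbers were checked for pairing: same-numbered libraries deviated together (every r above 0.1) in 1 of 15 comparisons of groups, immature against mature mice at 0dpr, where the block called no member. The mean r over 154 such pairs was 0.00847. Of 57 pairs of libraries within a group, none agreed within sampling noise, and pairs between groups were not checked.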

Additional observations from a re-analysis of the deposited data

Results flagged for a closer look

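Dixon's ratio was taken on log2 CPM for 90 combinations of a member and a group of 4 libraries. Of these, 9 held a library far from the other 3, where chance gives about 1 in 20. The levels below are in CPM. Bmp4 was 19.8 CPM in replicate 3 of immature mice at 0dpr, with the others between 12.8 and 13.7 CPM, and 2.11 CPM in replicate 3 of mature mice at 2dpr, with the others between 4.96 and 5.37 CPM. In that same library Id1 was 0.555 CPM, from 5 reads, with the others between 10.0 and 15.4 CPM. Bmp6 was 23.7 CPM in replicate 1 of mature mice at 0dpr against 11.4 to 12.0 CPM. Grem1 was 10.2 CPM in replicate 4 of immature mice at 5dpr against 7.51 to 7.90 CPM. Bmpr2 was 92.4 CPM in replicate 1 of immature mice at 2dpr against 123 to 127 CPM, 105 CPM in replicate 4 of mature mice at baseline against 94.3 to 95.7 CPM, and 143 CPM in replicate 4 of mature mice at 14dpr against 177 to 183 CPM. Id1 was 14.6 CPM in replicate 1 of mature mice at 14dpr against 10.4 to 10.9 CPM.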

How the results depend on the processing

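Fold changes of members were compared where the unadjusted p of the main fit was under 0.05, and for all members from 0dpr to 2dpr. These 63 values were thus mostly chosen for lying away from 0, so that a kept direction says little. Calls gained outside them were not counted here. With RLE factors, DESeq2, the filterByExpr filter, no filter or the replicate block, all 63 kept their direction. Of 33 calls, 33, 33, 33, 23 and 28 were kept and 3, 10, 3, 0 and 2 others gained. On the libraries compared alone, 24 of 32 were kept and 7 gained. With the muscle score as a covariate 9 of 33 were kept, 0 were gained and 5 values changed sign, Nog from 0dpr to 2dpr at both ages (1.32 and 1.73) and from baseline to 14dpr in immature mice (0.38), and Bmpr1a (0.11) and Bmpr2 (0.06) from 0dpr to 2dpr in mature mice. The number of calls between stages was 16 in immature and 16 in mature mice. It became 5 and 4 with the muscle score and, in immature mice, 10 without a filter, where more genes were tested. The members differing among stages in mature mice went from 9 to 5 with the muscle score. For the ages at each stage DESeq2 gave 2 calls in place of 0, and for the interaction DESeq2 and the fit on the libraries compared gave 1 each in place of 0, the latter Bmpr2 from baseline to 14dpr. The age difference averaged over stages went from 1 call, Bmp7, to 0 without a filter, with the replicate block and with the muscle score, and to between 0 and 1 when 1 library was left out, with 26 of 39 fits at 0. The cause was not tested in these cases. Leaving out 1 library gave 12 to 17 calls between stages in immature and 13 to 17 in mature mice. The replicate block changed no other count of calls by more than 1.5 times. Bmp7 and Nog, at a median of 23 and 10 reads per library, are limited by depth.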
